A study of Mus musculus with 4 samples.

Results

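Long stretches rich in 5-hydroxymethylcytosine (5hmC) in mouse embryonic stem cells (ESC) were described as runs of 5 or more adjacent 5 kb tiles, each enriched over input. A tile was kept when both inputs together held 5 or more distinct reads and stayed under an upper limit of coverage. It was called ESC-enriched with at least 10 ESC 5hmC reads and a depth-scaled ratio of 5hmC to input of at least 2. Of 452909 kept tiles on chromosomes 1 to 19, 49953 (11%) were ESC-enriched. They formed 31492 stretches, single tiles included, and 1084 of these reached 5 tiles. The 1084 runs held 7078 tiles, or 35.4 Mb, which was 14.2% of the ESC-enriched tiles and 1.56% of the kept tiles. The members were chosen by ESC 5hmC and input reads, so that ESC levels and NPC/ESC ratios in them are a description. The 5hmC reads of neural progenitor cells (NPC) played no part in the choice.

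5hmC is made from 5-methylcytosine by the TET dioxygenases, which oxidise the methyl group, and it can be a step towards loss of methylation or a lasting mark. In ESC it is known from the bodies of active genes, from enhancers and from the borders of CpG islands. An antibody against 5hmC pulls down denatured DNA fragments that carry the mark. A run is thus a domain where fragments were recovered from many consecutive tiles rather than from a single peak.

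The ESC were of the 46C line, strain 129/Ola, in which GFP reports Sox1, cultured with leukemia inhibitory factor (LIF) and serum. Monolayer differentiation of this line in N2B27 gave the NPC, taken as rosette-like, Sox1-GFP-positive cells on day 9, so that they represent 1 line and 1 protocol. Barcoded DNA of both cell types shared a tube during precipitation. There was 1 5hmC library and 1 input library per cell type, with no replicate and no knockdown treatment in any of them. In distinct reads on chromosomes 1 to 19 and X, the 5hmC libraries held 7123491 (ESC) and 1742680 (NPC), and the inputs 5059243 and 6588254. No p-value was computed. The 95% intervals in parentheses hold counting error alone, and how much cultures or precipitations vary is unknown. Positions are on genome build mm9. No annotation or sequence of that build was used here, so that runs are named by position.

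Runs carried a concentrated share of the ESC signal. They took 7.82% of the ESC 5hmC reads in kept tiles but 2.31% of the ESC input reads. The level, meaning 5hmC reads per input read, was 4.82 (4.79 to 4.85) in run tiles and 1.43 over all kept tiles in ESC. In NPC it was 0.418 (0.414 to 0.422) in the same run tiles against 0.265 over all kept tiles. Run tiles thus stood at 3.38 times the level of all kept tiles in ESC and at 1.58 times in NPC. The pooled NPC/ESC ratio of run tiles was 0.0868 (0.0858 to 0.0878), beside 0.186 over all kept tiles. Levels are not scaled for the depth of the 5hmC libraries, so that 0.186, and not 1, is the ratio at which a region keeps its place relative to the genome. Relative to all kept tiles the ratio of the runs was 0.467 (0.461 to 0.472), or 2.14-fold lower. The kept tiles were not matched to the runs in input coverage, which was higher in runs. Over all kept tiles the ratio was 0.346 at 5 to 19 summed input reads per tile and 0.112 at 50 or more. At 30 to 39 reads it was 0.164, beside 0.0930 in run tiles of that coverage. Any difference between ESC and NPC in the total amount of 5hmC is not measured by this scale.

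The choice by ESC reads raised the ESC value. When reads at even start positions chose the runs and reads at odd start positions measured them, 1049 runs were found. The ESC level was then 4.34 (4.30 to 4.38), the NPC level 0.405 (0.399 to 0.410) and the ratio 0.0932 (0.0917 to 0.0947). The same measure moved more for single enriched tiles, whose ESC level was 4.11 with all reads and 2.86 (2.84 to 2.88) in reads that had not chosen them. Input coverage also moved with the choice. NPC input reads per ESC input read were 1.30 over kept tiles, 1.33 in the runs, and 1.24 in the runs measured on odd positions. With both inputs summed as denominator for both cell types, 1273 runs were found and their NPC/ESC ratio was 0.0887.

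Most runs were short. There were 470 runs of 5 tiles, 240 of 6, 140 of 7, 175 of 8 to 10, 48 of 11 to 15 and 11 of 16 or more. The median run had 6 tiles, 90 runs reached 50 kb, and the longest spanned 105 kb. Just below the minimum length lay 933 stretches of 4 tiles. Their ESC level was 4.51 (4.47 to 4.55), beside 4.62 (4.57 to 4.68) in runs of 5 tiles. The NPC/ESC ratios of these neighbouring lengths were 0.0901 (4 tiles) and 0.0893 (5 tiles). The minimum of 5 tiles therefore cut through a continuous series of lengths.

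The ESC level was higher in longer runs, while the NPC level was nearly flat. In ESC it was 4.72 in runs of 6 tiles, 4.78 in runs of 7 and 4.93 in runs of 8 to 10. It was 5.25 (5.14 to 5.36) in runs of 11 to 15 and 5.63 (5.43 to 5.83) in runs of 16 or more. In NPC it was 0.413 (0.406 to 0.420) in runs of 5 tiles, 0.405 in runs of 6, 0.424 in runs of 7 and 0.426 in runs of 8 to 10. It reached 0.435 (0.422 to 0.449) in runs of 11 to 15 and 0.435 (0.412 to 0.458) in runs of 16 or more. Runs of 8 or more tiles stood at 1.10 times the level of 5-tile runs in ESC (1.08 to 1.12) and at 1.04 times in NPC (1.02 to 1.06).

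By length, the NPC/ESC ratio was 0.0893 in runs of 5 tiles, 0.0858 in runs of 6 and 0.0888 in runs of 7, and these intervals overlapped. It was 0.0864 (0.0843 to 0.0884) in runs of 8 to 10, 0.0829 (0.0799 to 0.0861) in runs of 11 to 15 and 0.0773 (0.0725 to 0.0823) in runs of 16 or more. The ratio of runs of 8 or more tiles was 0.947 times that of 5-tile runs (0.921 to 0.973). This difference did not keep its direction under all settings. It was 1.02 when the tile grid was shifted by 0.5 of a tile and 1.19 when the fold for a call was set to 3. The order of the ratio by length within runs therefore depends on these settings, and the cause was not tested.

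**Figure D1:**
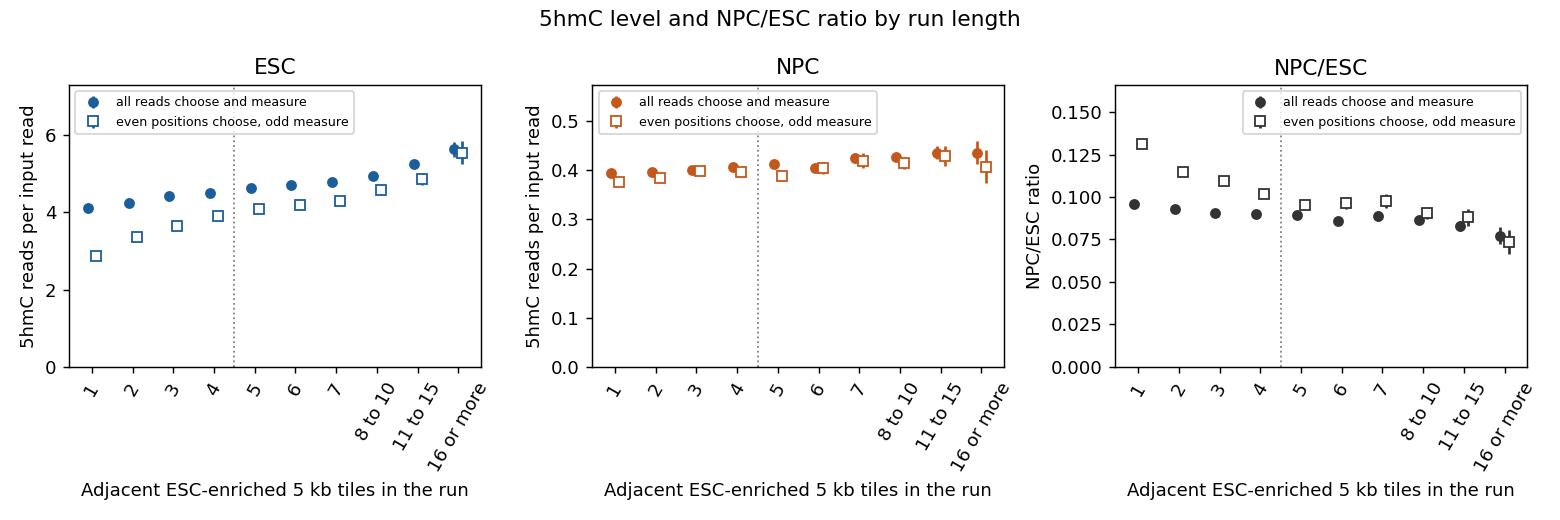
5hmC reads per input read in ESC (left) and NPC (middle) and the NPC/ESC ratio (right) for stretches of adjacent ESC-enriched 5 kb tiles, by number of tiles. Filled points use all reads, open squares are stretches chosen on reads at even positions and measured on odd positions, bars are 95% counting intervals, and the dotted line marks the minimum of 5 tiles. In ESC the open squares climb from 2.86 at 1 tile to 5.53 at 16 or more, and in NPC they stay between 0.376 and 0.428.

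In reads that did not choose them, the ESC level was 2.86 in single tiles, 3.35 in stretches of 2 tiles, 3.65 in stretches of 3 and 3.90 in stretches of 4. It went on from 4.08 (4.02 to 4.14) in runs of 5 tiles to 5.53 (5.25 to 5.84) in runs of 16 or more. The NPC level in the same stretches was 0.376 (0.373 to 0.379) in single tiles, 0.388 (0.379 to 0.397) in runs of 5 and 0.405 (0.374 to 0.440) in runs of 16 or more. The NPC/ESC ratio in these reads was 0.0950 (0.0924 to 0.0978) in runs of 5 tiles, 0.0904 in runs of 8 to 10, 0.0880 in runs of 11 to 15 and 0.0733 (0.0665 to 0.0808) in runs of 16 or more. The longest class held 10 runs.

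At like ESC enrichment, NPC levels in runs and in single tiles lay within a narrow range of each other. The enrichment here is that of the reads that chose the tiles, which raised the ESC level of single tiles more than that of runs. Run and single tiles of a class may therefore differ in ESC level on other reads. Tiles enriched 2 to 2.5-fold in ESC had an NPC level of 0.383 (0.376 to 0.390) in runs and 0.371 (0.367 to 0.374) alone. Those enriched 3 to 4-fold had 0.430 (0.423 to 0.438) and 0.416 (0.410 to 0.421), and those enriched 4 to 6-fold 0.450 (0.441 to 0.460) and 0.451 (0.443 to 0.459). At 6-fold or more the run tiles were lower, at 0.464 (0.446 to 0.482) against 0.495 (0.475 to 0.516), and these intervals overlapped. From the lowest to the highest of these classes the ESC level in run tiles went from 3.23 to 10.7.

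NPC enrichment was more frequent in runs than over all tiles. By the same rule of 10 reads and 2-fold over input, 1769 of 7078 run tiles (25%) were NPC-enriched, beside 6.10% of all kept tiles and 18.5% of single ESC-enriched tiles. The share was higher in run tiles than in single tiles in every class of ESC enrichment above. It was 21.0% against 16.4% at 2 to 2.5-fold and 30% against 21.8% at 6-fold or more. Run tiles were covered more deeply, with 37.4 summed input reads per tile against 25.01 over kept tiles, and the fixed minimum is easier to reach at greater depth. Among tiles with 30 to 39 summed input reads, 29.9% of 2747 run tiles were NPC-enriched, beside 23.4% of single ESC-enriched tiles and 8.67% of tiles not enriched in ESC. Their NPC levels were 0.451 (0.445 to 0.458), 0.390 (0.386 to 0.394) and 0.251 (0.250 to 0.252). The NPC level in run tiles was above that of tiles not enriched in ESC in all 5 classes of input coverage. It was also above that of single ESC-enriched tiles in all 5, though the size of the difference depended on coverage. At 5 to 19 summed input reads, run and single tiles had 0.490 (0.448 to 0.535) and 0.477 (0.469 to 0.486), which overlapped. At 20 to 29 reads they had 0.480 (0.468 to 0.492) and 0.414 (0.410 to 0.419). The levels were 0.393 (0.387 to 0.400) and 0.351 (0.346 to 0.356) at 40 to 49, and 0.342 (0.334 to 0.351) and 0.312 (0.303 to 0.321) at 50 or more.

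NPC-enriched tiles were present in most runs. In 286 runs (26.4%) no tile was NPC-enriched, in 312 there was 1, and in 486 there were 2 or more. Among the 470 runs of 25 kb, 35.5% had no NPC-enriched tile, beside 60.8% of 25 kb windows of like input depth. At least 3 of the 5 tiles were NPC-enriched in 14.0% of these runs, beside 3.23% of such windows. The ESC level was 4.74 in the runs without an NPC-enriched tile and 5.03 in the 130 runs with 4 or more, but the latter were longer, with a mean of 8.80 tiles against 5.89. NPC had 97 runs of 5 or more tiles by its own calls, of which 35 (36.1%) shared a tile with an ESC run. Of the 25 kb windows with the input depth of 25 kb ESC runs, 5.04% shared a tile with an ESC run. These windows were not matched to the NPC runs in depth or length. Conversely 37 ESC runs (3.41%) shared a tile with an NPC run, and among runs of 25 kb 2.13% did, beside 0.444% of such windows. NPC 5hmC had a lower depth, 3.75 reads per kept tile against 15.5 in ESC, and its part in the number of NPC runs was not tested. With ESC 5hmC thinned to the NPC depth, 884 ESC runs were called.

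Run by run, the NPC level spread from 0.112 to 1.76, with a median of 0.388, from 12 to 307 NPC 5hmC reads per run, so that part of this spread is counting error. The ESC level spread from 3.18 to 11.7, with a median of 4.61. The NPC interval lay above the level of all kept tiles in 573 of 1084 runs (52.9%) and below it in 26 (2.40%). Of 25 kb windows over the kept genome, 11.4% lay above and 12.5% below. In the 470 runs of 25 kb alone, 44.9% lay above, beside 18.4% of windows whose summed input fell within the 5th to 95th percentile of these runs. The NPC/ESC ratio, which depends on the choice, had its interval below that of all kept tiles in 924 runs (85.2%) and above it in 5 (0.461%). Among the 470 runs of 25 kb these shares were 79.4% and 0.851%. Of 25 kb windows, not matched in input depth, 12.0% lay below and 29.6% above.

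**Figure D2:**
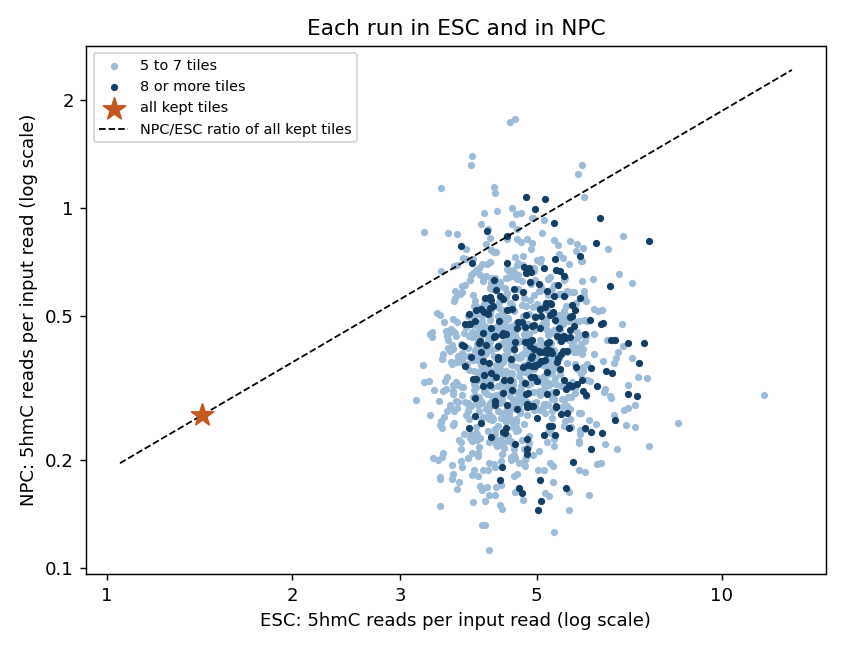
Each of the 1084 runs by its 5hmC reads per input read in ESC (horizontal, log scale) and NPC (vertical, log scale), with runs of 8 or more tiles in dark blue. The star is the value over all kept tiles and the dashed line its NPC/ESC ratio of 0.186. Most runs lie below the line, and the NPC values range from 0.112 to 1.76 and the ESC values, whose low end is set by the rule, from 3.18 to 11.7.

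Runs lay within wider regions that were already rich in ESC 5hmC. Kept tiles up to 50 kb from a run, with tiles of other runs left out, had an ESC level of 2.60 (2.58 to 2.61), which was 1.82 times that of all kept tiles. Of these 17304 flank tiles, 33.3% were themselves ESC-enriched, beside 11% over all kept tiles. Their NPC level was 0.348 (0.346 to 0.350), or 1.31 times that of all kept tiles, and their NPC/ESC ratio was 0.134 (0.133 to 0.135). From flank to run the level stepped up 1.86-fold in ESC, where the choice sets the step. In NPC, which did not choose the runs, it stepped up 1.20-fold (1.19 to 1.22). That NPC step was 1.15-fold when runs were chosen on reads at even positions and measured on odd positions.

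The profile across the edges showed the step within 1 tile. In ESC the level was 2.58 at 45 to 50 kb from a run and 2.88 at 5 to 10 kb. It was 1.93 in the adjacent tile, which by the rule is not enriched. Inside, it was 4.61 in tile 1, 4.77 in tile 2 and 4.87 in tile 3 from the edge. In NPC it was 0.354 (0.347 to 0.361) at 45 to 50 kb, 0.360 (0.353 to 0.367) at 5 to 10 kb and 0.333 (0.327 to 0.340) in the adjacent tile. Inside it was 0.414 (0.407 to 0.421), 0.421 (0.414 to 0.428) and 0.409 (0.401 to 0.417). The NPC intervals of the tiles 45 to 50 kb and 5 to 10 kb away overlapped, and the step in NPC lay between the same tiles as in ESC. The adjacent tile had the lowest NPC level of the tiles outside. Its interval overlapped that of the tile next to the one at 45 to 50 kb, on the side of the run, which had 0.337 (0.330 to 0.344). The intervals of the other tiles outside lay above that of the adjacent tile. A dip in NPC at the edge was thus not set apart from all flank tiles. NPC input reads per ESC input read were 1.14 in the adjacent tile and 1.34 in the first tile inside, and the part of this in the step was not tested.

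In bins of 1 kb the ESC level was 2.13 (2.08 to 2.19) in the last kb outside and 4.03 (3.92 to 4.14) in the first kb inside, and it reached 5.02 in kb 5. In NPC the same bins held 0.346 (0.333 to 0.361), 0.397 (0.381 to 0.412) and 0.432 (0.416 to 0.448). Over the last 5 kb outside, ESC bins lay between 1.84 and 2.13, and between 2.75 and 3.03 over the 5 kb beyond. This dip in ESC had the width of the 5 kb tile that the rule requires to fail. In NPC the bins lay between 0.325 and 0.346 over the last 5 kb outside, and between 0.346 and 0.374 over the 5 kb beyond.

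**Figure D3:**
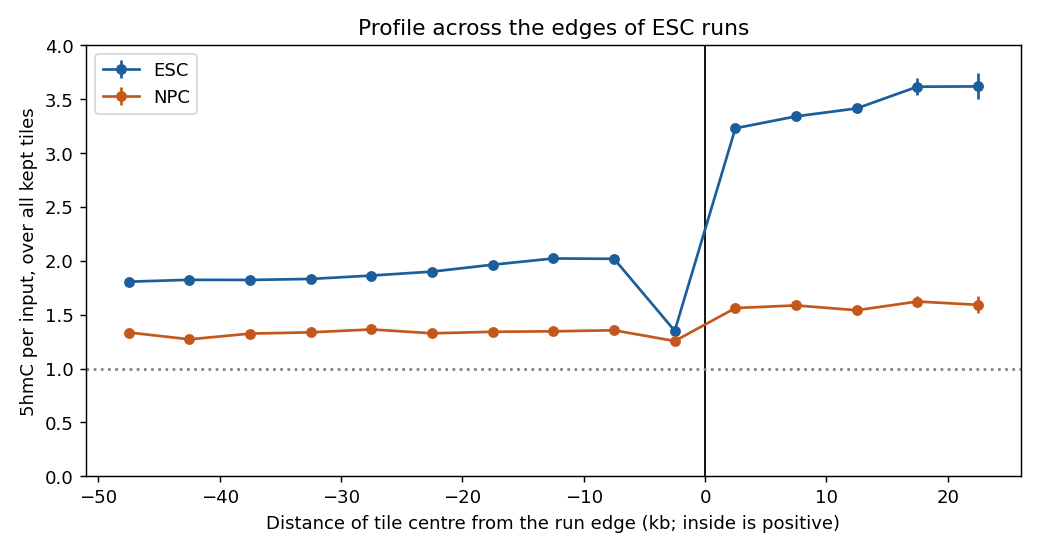
5hmC per input in ESC (blue) and NPC (orange), relative to all kept tiles, by distance of the 5 kb tile from the nearer edge of a run, pooled over both edges of 1084 runs with 95% counting intervals. Inside is positive, and tiles of other runs are left out. ESC step from 1.35 in the adjacent tile to 3.23 in the first tile inside, and NPC from 1.26 to 1.56.

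Many run ends were near misses of the rule. Of 2168 ends, 911 (42.0%) met a tile with a ratio of 5hmC to input between 1.5 and 2. Another 751 met a ratio of 1 to 1.5 and 494 a ratio under 1. A tile left out for low input ended 11 runs, and a tile with too few 5hmC reads ended 1. The ending tile had a median ratio of 1.41 and the first tile inside one of 2.94. Between neighbouring runs, 63 gaps were a single tile wide, and these tiles had a median ratio of 1.47. With single tiles bridged, the number of runs was 2184.

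Over single runs the NPC step at the edge was variable. The NPC level in the run was a median 1.14 times that in its own flanks, with a 5th to 95th percentile of 0.580 to 2.33. Its interval lay above the flanks in 272 runs (25.1%), beside 8.99% of 25 kb windows, and below them in 91 (8.39%), beside 8.53% of windows. Among runs of 25 kb, 23.0% lay above and 7.23% below. In windows of like input depth these shares were 11.4% and 11.3%. Runs where NPC stood above the surroundings were thus more frequent than among windows of like depth, and runs where it stood below were less so.

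The 5 longest runs differed in NPC. On chr2:168450001-168555000, 21 tiles held 48 to 199 ESC 5hmC reads each, with a median of 94, and 1 to 28 NPC 5hmC reads, with a median of 8. Its NPC level was 0.439 (0.367 to 0.522), or 0.985 times that of its flanks (0.755 to 1.29), although 6 of its tiles were NPC-enriched. On chr15:58790001-58895000, also of 21 tiles, the tiles held 52 to 169 ESC and 3 to 40 NPC 5hmC reads, with medians of 79 and 9. Its NPC level was 0.612 (0.523 to 0.716), or 2.77 times that of its flanks (2.07 to 3.74). There the NPC tiles ranged from 0.815-fold to 7.42-fold over input, against 0.140-fold to 1.82-fold in the 20 flank tiles. The 2 intervals against the flanks did not overlap between these runs of equal length. The flanks differed as well, with NPC levels of 0.445 on chromosome 2 and 0.221 on chromosome 15.

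**Figure D4:**
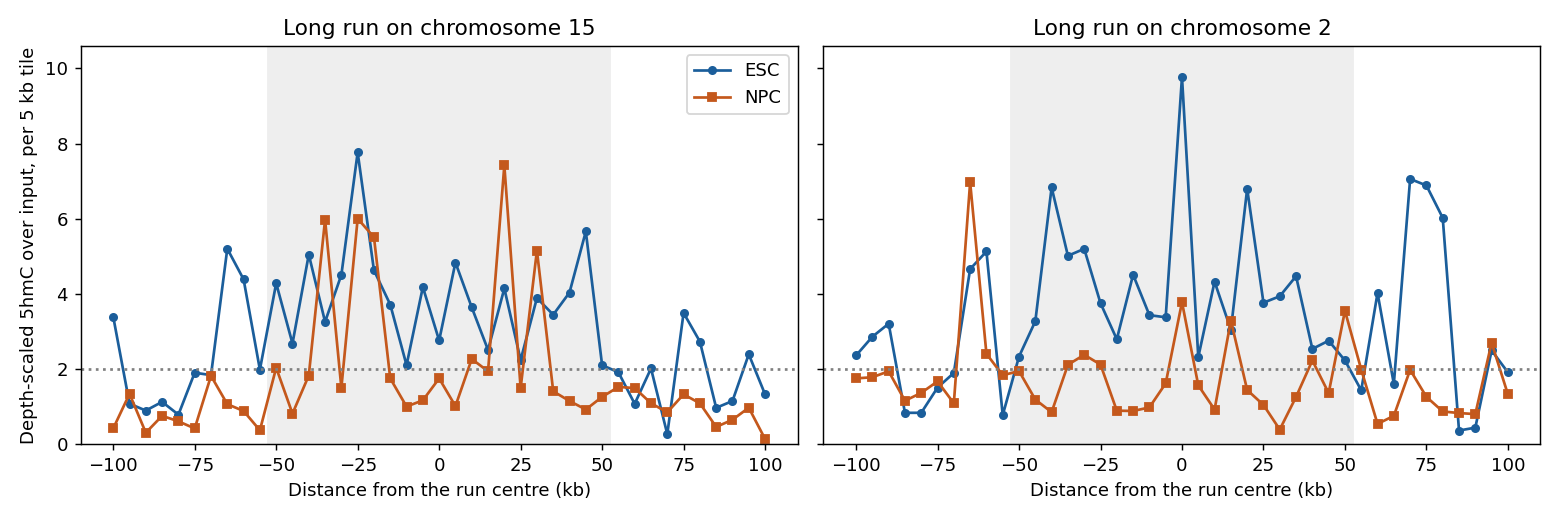
Depth-scaled ratio of 5hmC to input per kept 5 kb tile, with a pseudocount of 0.5 reads, in ESC (blue circles) and NPC (orange squares) across the 2 longest runs (grey) and 50 kb on each side. The dotted line marks the ratio of 2. ESC tiles lie between 2.10 and 7.77 in the run on chromosome 15 and between 2.23 and 9.77 in that on chromosome 2, and 7 (chromosome 15) and 6 (chromosome 2) tiles of the runs were NPC-enriched.

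The other 3 long runs had 19 tiles each. Ties in length were ranked by ESC 5hmC reads, and 1 more run of 19 tiles, on chromosome 14, ranked after them. On chr11:117875001-117970000 ESC reached 6.69 reads per input read (6.04 to 7.42) from 2764 5hmC reads and NPC 0.430 (0.366 to 0.504), with a ratio of 0.0642 (0.0532 to 0.0776). On chr4:140520001-140615000 the ratio was 0.0778 (0.0631 to 0.0959), and the NPC level was 1.88 times that of the flanks (1.39 to 2.55). On chr19:6420001-6515000 ESC were lowest of the 5, at 4.24 (3.79 to 4.76), and the ratio highest, at 0.126 (0.103 to 0.153). The NPC interval of this run and of that on chromosome 11 included the level of the flanks.

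The named runs at the ends of the range were chosen among 1062 runs with at least 50 reads in each input, and their intervals are not adjusted for that choice. The lowest NPC/ESC ratio was 0.0236 (0.0123 to 0.0434) on chr15:84760001-84785000, where the 5 tiles held 438 ESC and 15 NPC 5hmC reads over 82 and 119 input reads. The next were 0.0257 (0.0180 to 0.0367) on chr15:75995001-76025000 and 0.0258 (0.0141 to 0.0456) on chr9:119860001-119885000. On chr11:88690001-88715000 it was 0.0263, and on chr11:100440001-100465000 it was 0.0268. In 4 of these 5 runs no tile was NPC-enriched and the NPC level lay below that of the flanks, at 0.307 to 0.472 times, with intervals under 1. The exception was chr15:75995001-76025000, where NPC stood at 0.929 times the flanks (0.649 to 1.32). That run also had the highest ESC level, 11.7 (9.75 to 14.2), from 48 to 451 reads per tile.

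The runs with the highest NPC/ESC ratio lay above the 0.186 of all kept tiles, by 1.74 times (1.20 to 2.53) on chromosome 8 to 2.06 times (1.51 to 2.81) for the first run on chromosome 5. On chr5:112055001-112080000 the ratio was 0.383 (0.281 to 0.523), from 439 ESC and 255 NPC 5hmC reads over 97 and 147 input reads. A single tile held 138 of those NPC reads. On chr5:118780001-118805000 it was 0.382 (0.261 to 0.557), with 92 of 178 NPC reads in 1 tile and 69.7% of them on the plus strand. On chr5:112005001-112035000, close to the first of these, it was 0.355 (0.259 to 0.488), with NPC reads spread from 11 to 49 per tile. The runs on chr16:44520001-44545000 and chr8:127850001-127875000 had ratios of 0.337 (0.225 to 0.505) and 0.324 (0.223 to 0.470). In all 5 the NPC level was above that of the flanks, from 1.77 times (1.30 to 2.42) on chromosome 8 to 3.62 times (2.61 to 5.02) on chromosome 5. The first 3 of these runs also had the highest NPC levels, 1.73, 1.76 and 1.397.

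Next to the run on chromosome 15, the highest ESC levels were 8.49 (6.72 to 10.9) on chr4:151750001-151775000 and 7.62 (6.59 to 8.86) on chr8:123065001-123110000. NPC differed between these runs beyond counting error. The NPC level was 0.252 (0.164 to 0.376) on chromosome 4, with no NPC-enriched tile, and 0.808 (0.663 to 0.983) on chromosome 8, where 8 of 9 tiles were NPC-enriched. Against their own flanks they stood at 0.959 times (0.580 to 1.56) and 1.08 times (0.844 to 1.38).

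Runs were spread unevenly over chromosomes. They made up 2.83% of kept tiles on chromosome 5, 2.82% on chromosome 11, 2.64% on chromosome 4, 2.60% on chromosome 17 and 2.55% on chromosome 19. The share was lowest on chromosomes 13, 6, 1 and 3, at 0.594%, 0.631%, 0.709% and 0.716%. Chromosomes 5 and 4 held 116 and 114 runs, and chromosome 13 held 22. Input coverage was not equal, with 29.95 summed input reads per kept tile on chromosome 11, 24.5 on chromosome 13 and 22.1 on chromosome 3. Over the 19 chromosomes the run share went with input per kept tile (Pearson r 0.677, Spearman rho 0.677). It also went with the share of ESC-enriched tiles (r 0.954, rho 0.918). Run tiles are themselves part of the ESC-enriched tiles, so that this second relation is partly built in. The chromosomes share the 4 libraries, and these values are a description. Chromosome X, which lies outside the rule, had 574 ESC-enriched tiles among 23910 kept and its longest stretch was 4 tiles, at 10.5 summed input reads per tile.

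The NPC/ESC ratio inside runs varied less between chromosomes than the share of runs. The lowest ratio was that of chromosome 18, 0.0757 (0.0695 to 0.0826), and the highest that of chromosome 2, 0.0963 (0.0924 to 0.1004). Chromosome 2 had the highest NPC level in its runs, 0.456 (0.441 to 0.472), and an ESC level of 4.74 (4.62 to 4.85). On chromosomes 10 and 12 the ratios were 0.0770 (0.0737 to 0.0804) and 0.0767 (0.0725 to 0.0812), with NPC levels of 0.387 and 0.376. Over all kept tiles the order of chromosomes was another: chromosome 3 had the highest ratio, 0.216, but a ratio of 0.0797 in its runs.

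Along the chromosomes, runs were most frequent towards the end far from the centromere, which lies at the start of each mouse autosome. With each autosome divided into 10 equal parts from its first to its last kept tile, runs took 0.476% of the kept tiles in part 1 and 0.804% to 1.08% in parts 2 to 7. They took 2.08% in part 8, 2.92% in part 9 and 4.53% in part 10. Part 10 alone held 301 runs, and part 1 held 33. The ESC level inside runs was 4.50 in part 1 and 5.01 in part 10, and the NPC/ESC ratio was 0.0837 (0.0782 to 0.0894) and 0.0842 (0.0825 to 0.0860). ESC-enriched tiles of any stretch length took 7.03% of the kept tiles in part 1 and 20.3% in part 10. The number of runs thus differed strongly along the chromosome, while the ratio intervals of parts 1 and 10 overlapped. The ratio was not even over all parts. It was 0.0947 (0.0901 to 0.0994) in part 3, 0.0798 (0.0760 to 0.0838) in part 6 and 0.0918 (0.0891 to 0.0945) in part 8.

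**Figure D5:**
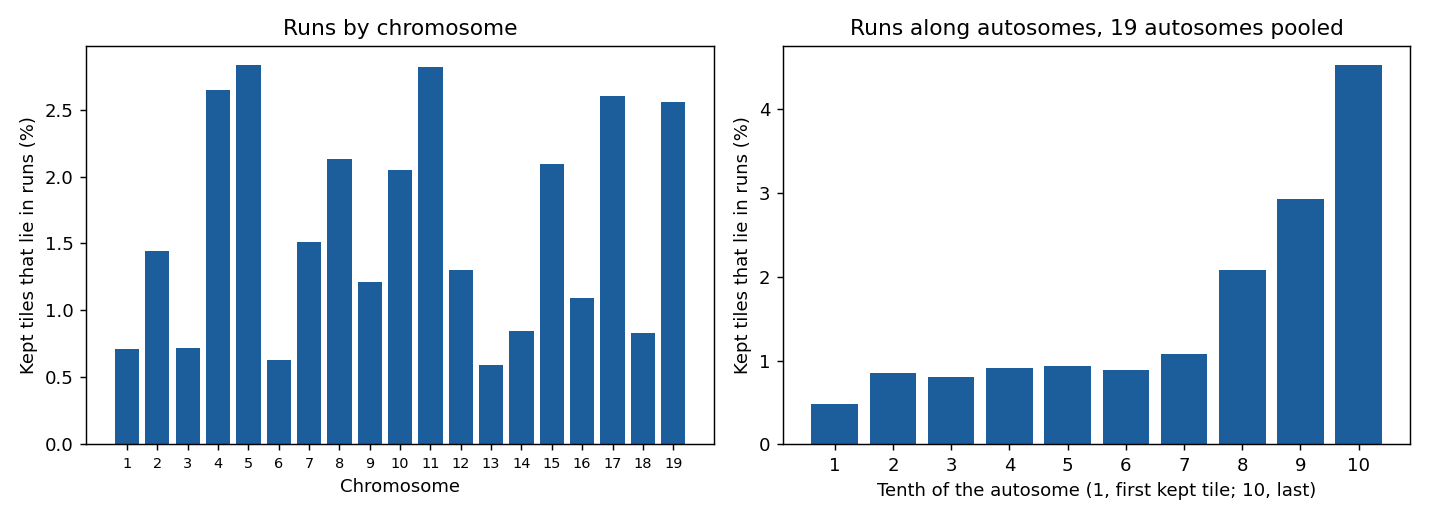
Percent of kept 5 kb tiles that lie in runs, by chromosome (left) and by 10 equal parts of the autosome length, pooled over 19 autosomes (right), with 1 at the centromeric end. Chromosomes 5 and 11 reach 2.83% and 2.82%, and part 10 of the autosomes reaches 4.53% against 0.476% in part 1.

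Runs were clustered. The median distance between neighbours on a chromosome was 280 kb, with quartiles of 60 and 1140 kb. Other runs lay within 50 kb of 412 runs (38.0%), which formed 119 pairs and 45 groups of 3 or more, and the largest group held 9 runs. Of 2413 windows of 1 Mb with kept tiles, 525 (21.8%) had a tile in a run, and 109 windows (4.52%) held 50% of all run tiles. Of 1065 gaps between neighbouring runs, 63 were a single tile that failed the rule, with a median ratio of 1.47. The spacing was not compared with that of shorter stretches or of randomly placed runs, so that clustering beyond the uneven density was not tested. Runs near another had an NPC level of 0.440 (0.434 to 0.446) and an ESC level of 4.92 (4.87 to 4.97), against 0.403 (0.398 to 0.408) and 4.75 (4.71 to 4.79) in runs that stood alone. The ratio was 0.0895 (0.0880 to 0.0911) near another run and 0.0848 (0.0836 to 0.0861) in lone runs. Runs near another were also longer, with a mean of 6.95 tiles against 6.27, and the 2 sets were not matched in length.

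The densest window, chr5:114000001-115000000, held 14 runs with 108 of its 200 kept tiles. On chromosome 17 the window from 46000001 to 47000000 held 10 runs, and on chromosome 4 that from 151000001 to 152000000 held 9. Sets of 3 consecutive runs parted by single tiles occurred 7 times, of which 2 overlapped on chromosome 19, and ties were ranked by ESC 5hmC reads. Within the first window above lay the set ranked first, on chr5:114635001-114775000, where runs of 11, 7 and 8 tiles were parted by single tiles. Their NPC levels were 0.338 (0.265 to 0.429), 0.471 (0.356 to 0.617) and 0.994 (0.797 to 1.24), while the ESC levels were 4.90, 4.30 and 4.97. NPC 5hmC thus differed beyond counting error between neighbours whose ESC intervals overlapped. The next, chr19:47480001-47605000, had runs of 12, 5 and 6 tiles with NPC levels of 0.364, 0.520 and 0.412, whose intervals overlapped.

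Within a run the signal was uneven. In 5-tile runs the tile with most ESC 5hmC reads held a median of 27.6% of the reads, where an equal share would be 20%. The tile with the highest ratio was at either edge in 185 of 470 such runs (39.4%), and edge tiles are 40% of the tiles. Both ends were counted together. The median ratio of the highest to the lowest tile enrichment was 1.93 in runs of 5 tiles and 2.34 in runs of 7. Reads were balanced between strands. The plus strand held 50.2% of the ESC and 50.6% of the NPC 5hmC reads in run tiles. Over 75% of the NPC 5hmC reads lay on 1 strand in 9 of 1049 runs with at least 20 such reads (0.858%), beside 2.70% of 25 kb windows. Among runs of 25 kb these were 6 of 439 (1.37%). The windows were not matched to the runs in the number of NPC reads. Stacked reads were few, with 1.03 deposited reads per position in ESC and 1.02 in NPC 5hmC of run tiles, beside 1.02 and 1.01 over kept tiles.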

How the data were processed

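Genomic DNA of 46C ESC and NPC was precipitated with an antibody against 5hmC and sequenced beside input. The authors aligned reads with Bowtie 0.12.7 to mm9, per the submitters' processing notes, and deposited the count of reads at each aligned position, extended to 350 bp. For filters and multiply mapping reads, the treatment is not given in the sources used here. At 97.9% to 99.7% of positions the deposited count was 1, and each position was used once, by its midpoint.

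Tiles of 5 kb with 5 to 115 summed input reads were kept. A tile was enriched with at least 10 5hmC reads and a ratio of at least 2, with a pseudocount of 0.5 and library totals over chromosomes 1 to 19 and X. Levels are pooled 5hmC reads per pooled input read. Intervals at 95% are exact, or normal on the log scale above 2000 counts. A window or run was called above or below a level where its interval excluded that level. Named runs are the 5 longest, the 5 lowest and 5 highest NPC/ESC ratios among runs with 50 or more reads in each input, the 3 highest ESC and NPC levels and the 2 closest groups of 3, with ties ranked by ESC 5hmC reads. The members, lists and measures were chosen with earlier results of these data known. The functions were checked on simulated data, with Python 3.11.15, numpy 2.4.6, pandas 2.3.3, scipy 1.17.1 and matplotlib 3.10.9. Alternatives covered the minimum of reads, fold, pseudocount, tile grid and size, input, run length, bridging, thinning, flanks and library totals. Overlap with genes, GC and CpG content was not analysed here, as no mm9 sequence or annotation was used.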

Additional observations from a re-analysis of the deposited data

How the results depend on the processing

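No paired analysis was possible because each group has 1 library and the labels carry no replicate numbers. The NPC/ESC ratio stayed below 0.186, the value of all kept tiles in the main setting, under all alternatives that give it. The value of all kept tiles was not recomputed for each alternative. All of them choose tiles by ESC reads, so that the choice itself favours a low ratio. The NPC step against the flanks was above 1 under all alternatives run. The number of runs was 106 with a fold of 3, 160 with tiles of 2.5 kb, 4077 with runs of 3 or more tiles, 234 with runs of 8 or more and 2184 with single tiles bridged. The NPC/ESC ratio was 0.0641 with a fold of 3, 0.0837 with a pseudocount of 2, 0.0750 with tiles of 2.5 kb, 0.0887 with summed inputs, 0.0887 with runs of 3 or more, 0.0845 with runs of 8 or more, 0.0894 with bridging, 0.0932 with even positions choosing and odd measuring, and 0.0838 with ESC 5hmC thinned to the NPC depth. The NPC level in runs against flanks was 1.14, 1.17, 1.19, 1.27, 1.29, 1.15, 1.30, 1.15 and 1.18 under the same 9 settings in that order, and 1.16 with tiles of other runs kept in the flanks. The share of run tiles enriched in NPC was 7.69% with a minimum of 20 reads, 12.8% with a fold of 3, 26.6% with a pseudocount of 2, 27.0% with tiles of 2.5 kb, 23.4% with runs of 3 or more, 27.0% with runs of 8 or more and 23.8% with bridging. The ratio of long against short runs turned to 1.19 with a fold of 3 and 1.02 on the shifted grid, and was 0.985 with bridging and 0.976 with thinning; the cause was not tested. Runs of 8 or more tiles give no value for it. Library totals over chromosomes 1 to 19 alone, chosen after seeing the data, gave 1029 runs. The NPC depth of 3.75 5hmC reads per kept tile limits calls in single tiles, and 1 library per group leaves the variation between cultures unknown.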
